A study of Mus musculus with 9 samples.

Results

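The insulin-like growth factor (IGF) family was followed through 10 genes, the ligands Igf1 and Igf2, the receptors Igf1r and Igf2r, and the binding proteins Igfbp2 to Igfbp7, out of 12393 genes that the platform annotation named by exactly 1 symbol. These 10 genes were read by 23 probe sets, 7 of them by several sets and 3 by 1 set each. The genes were selected on their family names, with the intensities and fold changes of these same 9 arrays already known, among them the difference in Igfbp5. The adjusted p-values of members given here therefore describe these arrays and are not independent evidence about the family.

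The arrays carried total RNA of N1E-115, a mouse neuroblastoma cell line, in 3 groups of 3 arrays lettered A, B and C: cells that overexpress mouse Tcof1, cells with Tcof1 knocked down, and cells with wildtype Tcof1. Tcof1 encodes treacle, a nucleolar protein needed for the transcription of ribosomal RNA genes. All groups share the same tumour line, and the means by which Tcof1 was raised or lowered, the number of clones and whether the letters mark separate cultures stay unstated in the labels. The p-values therefore rest on differences among the 3 arrays of a group, and these may be technical.

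IGF1 and IGF2 are secreted growth factors that act through IGF1R, a receptor tyrosine kinase that switches on the PI3K and AKT pathway and favours growth and survival. IGF2R, which is also the mannose phosphate receptor of lysosomal enzymes, takes IGF2 up for breakdown. The binding proteins hold IGFs outside the cell and can block or prolong their action, and IGF2 signalling is well known in tumours of the sympathetic lineage.

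The Tcof1 probe sets separated the overexpressing arrays from the others, and no difference between knockdown and wildtype arrays passed the test. The set 1423600_a_at averaged 293.8 ± 80.9 intensity units in overexpressing, 126.6 ± 12.6 in knockdown and 149.7 ± 6.60 in wildtype arrays (SD, n = 3 each). On all 3 sets the overexpressing arrays lay above every array of both other groups, and 1 of the 3 was called against wildtype. For knockdown over wildtype, 1423600_a_at was lower in every knockdown array (112.1 to 134.8) than in any wildtype array (143.1 to 156.3), at -0.22 ± 0.21 (adjusted p = 0.744). The set 1423601_s_at was at -0.40 ± 0.20 (adjusted p = 0.51) and 1424643_at at 0.06 ± 0.17 (adjusted p = 0.934), both with overlapping groups, so the size of the knockdown is not settled by these sets. Array medians lay between 164.1 and 185.95. Of 16 measured markers of sympathetic neurons and neuroblastoma, 14 were brighter than the 40th percentile of all probe sets in mean intensity. Against wildtype in overexpressing cells 1 of the 16 was called higher, the noradrenaline synthesis gene Dbh (0.60), and 4 lower, Chga (-0.75), Ache (-1.40), Stmn2 (-0.38) and Eno2 (-1.84). Of all probe sets 4.52% were called higher and 5.07% lower. Against knockdown 0 of the 16 were called higher and 5 lower, beside 3.43% and 4.14% of all probe sets. These 5 were Chga, Ache, Eno2, Tubb3 (-0.44) and Gap43 (-0.36). The summed intensity of the 16 was 54880 to 62570 in overexpressing, 67940 to 72940 in knockdown and 67590 to 70720 in wildtype arrays. Fibroblast markers, of which 2 of 12 passed the 40th percentile, summed to 3681 to 4038 in overexpressing, 5208 to 5710 in knockdown and 5166 to 5564 in wildtype arrays. Most of this sum was Fbln1, which averaged 3314 in overexpressing, 4605 in knockdown and 4623 in wildtype arrays, and the other 11 summed to 575.9, 823.5 and 701.7 in the same groups, with Pdgfrb (-2.01) the only one of them called. Markers of Schwann cells and glia (4 of 6 above that percentile) summed to 604.8 to 761.0 in overexpressing, 860.3 to 980.0 in knockdown and 882.6 to 986.8 in wildtype arrays, with Erbb3 (257.7, 359.0 and 431.3) the only one called against wildtype. Blood and immune markers (2 of 7) summed to 723.1 to 813.3 in overexpressing, 1219 to 1262 in knockdown and 1390 to 1433 in wildtype arrays. Most of that difference was Cd74, which averaged 373.2, 791.7 and 928.3 in the same groups. None of the other 6 was called against wildtype, and Cd3e was called lower in overexpressing than in knockdown arrays (-1.16, adjusted p = 0.0456). Endothelial markers (2 of 5) summed to 373.0 to 501.5, 522.8 to 715.2 and 517.5 to 552.3, with Pecam1 called lower against wildtype (-1.05). The other 4 summed to 412.1, 484.5 and 431.4 on average in the same groups. Against wildtype in overexpressing arrays Cdh5 (0.51) and Kdr (0.20) were higher and Tek (-0.12) and Vwf (-0.95) lower, none of them called. All 5 sums were lower in every overexpressing array than in any other array, and their part in the results below was not tested. No marker was at 0, but the lowest value was 1.9, and without detection calls such low values do not show that a marker was expressed. With bulk RNA fewer cells of a type and less RNA per cell cannot be told apart.

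In cells overexpressing Tcof1 the IGF probe sets that passed the test were those of 3 binding proteins. Igfbp5 was 2.66-fold and Igfbp7 1.68-fold higher than in wildtype cells, and Igfbp6 was lower, at 0.594 of the wildtype level. These were 3 of the 23 probe sets, 13.0%, beside 9.59% of all probe sets called in this comparison, so the family as a whole was called about as often as the table. The groups did not overlap for 5 of the 23 sets, or 21.7%, beside 27.8% of all sets. The median log2 fold change over the brightest set of each gene was -0.06, beside -0.016 over all 22626 probe sets. A call means an adjusted p under 0.05 in limma after Benjamini-Hochberg adjustment over all probe sets, and fold changes are differences of log2(intensity + 16), which understates changes of dim sets.

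**Figure D1:**
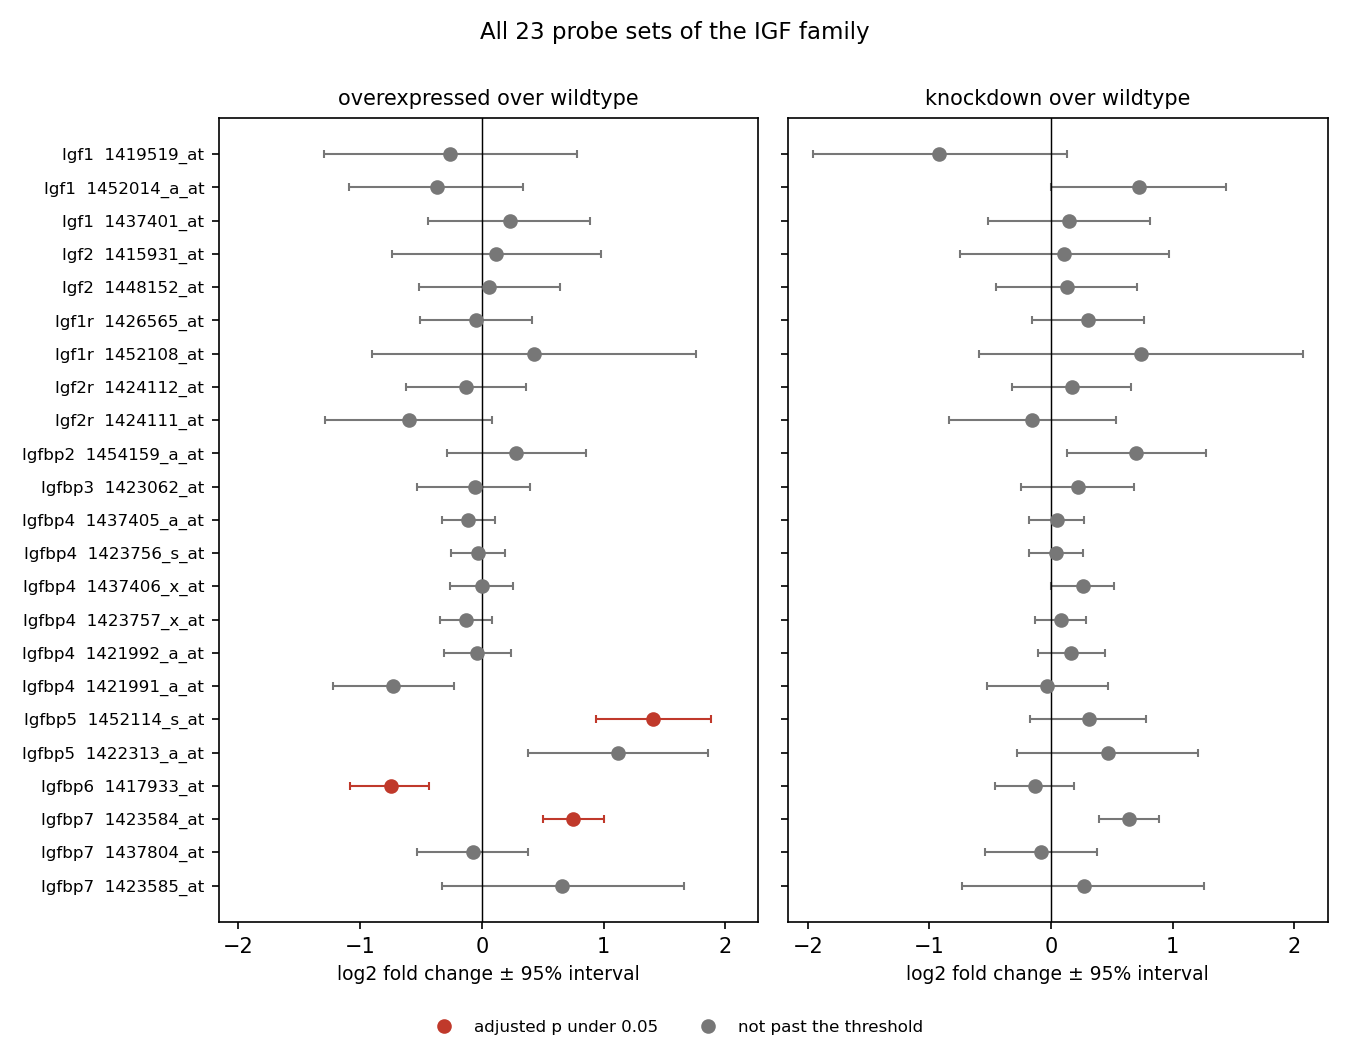
Log2 fold changes with 95% intervals (horizontal axis) of all 23 probe sets (rows, grouped by gene), overexpressed over wildtype on the left and knockdown over wildtype on the right. On the left the called sets, in red, are Igfbp5 at 1.41, Igfbp7 at 0.75 and Igfbp6 at -0.75; on the right no set is called.

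The start regions of these 3 genes are shown because theirs were the probe sets of the family that passed. Each window covers 250 bases before to 50 bases after a transcription start in RefSeq, 5′ to 3′ on the gene's strand, build GRCm38.p6: Igfbp5 at chr1:72874816-72875115 on the minus strand, Igfbp7 at chr5:77407996-77408295 on the minus strand and Igfbp6 at chr15:102143936-102144235 on the plus strand. Capitals mark matches on either strand to CANNTG (an E-box), GGGCGG (a GC box) and TATAAA.
Igfbp5: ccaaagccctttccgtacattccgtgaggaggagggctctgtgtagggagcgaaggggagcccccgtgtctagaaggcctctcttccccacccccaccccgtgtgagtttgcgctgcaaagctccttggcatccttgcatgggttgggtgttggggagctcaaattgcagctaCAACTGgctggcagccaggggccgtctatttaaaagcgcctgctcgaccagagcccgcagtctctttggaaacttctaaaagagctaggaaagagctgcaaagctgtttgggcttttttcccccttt
Igfbp7: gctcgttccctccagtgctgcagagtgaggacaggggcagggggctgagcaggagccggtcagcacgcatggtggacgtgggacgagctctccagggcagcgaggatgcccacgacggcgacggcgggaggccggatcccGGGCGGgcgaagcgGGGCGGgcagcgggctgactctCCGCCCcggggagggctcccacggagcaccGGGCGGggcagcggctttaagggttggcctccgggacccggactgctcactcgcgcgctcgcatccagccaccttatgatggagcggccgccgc
Igfbp6: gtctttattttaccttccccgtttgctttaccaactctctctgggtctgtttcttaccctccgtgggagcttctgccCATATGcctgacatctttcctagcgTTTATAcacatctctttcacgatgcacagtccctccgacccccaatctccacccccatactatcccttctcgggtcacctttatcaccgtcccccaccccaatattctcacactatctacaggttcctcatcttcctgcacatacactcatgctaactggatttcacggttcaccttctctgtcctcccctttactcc
The Igfbp5 window held 1 E-box, CAACTG, the Igfbp7 window 4 GC boxes, and the Igfbp6 window 1 E-box, CATATG, and 1 TATAAA match on the opposite strand, with no overlap among the matches. Of 32851 RefSeq promoter windows of this length, 72.3% held CANNTG, 35.7% held GGGCGG and 13.6% held TATAAA. The share of G and C was 56.3% for Igfbp5, 73.3% for Igfbp7 and 49.7% for Igfbp6, beside a median of 52.7% over all windows. None of the 3 motifs was shared by all 3 windows, and no binding was measured.

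Igfbp5 encodes a binding protein that also attaches to the extracellular matrix. Its brighter probe set, 1452114_s_at, read 672.5, 753.9 and 795.4 in overexpressing arrays A, B and C, 339.6, 331.8 and 333.6 in knockdown arrays, and 192.3, 246.2 and 403.7 in wildtype arrays. Every overexpressing array was above every other array, and the knockdown arrays lay within the range of the wildtype arrays. The log2 fold change was 1.41 ± 0.21 (SE) for overexpressed over wildtype (adjusted p = 0.00284) and 1.10 ± 0.21 for overexpressed over knockdown (adjusted p = 0.0127). Knockdown over wildtype was 0.31 ± 0.21 (adjusted p = 0.638), with a 95% interval from -0.17 to 0.78.

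The second Igfbp5 set, 1422313_a_at, read 189.6, 239.0 and 306.3 in overexpressing, 198.1, 163.6 and 97.2 in knockdown, and 60.2, 108.9 and 157.9 in wildtype arrays. Here too the overexpressing arrays were all above the wildtype arrays, with a log2 fold change of 1.12 ± 0.34 that did not pass (adjusted p = 0.0628), and they overlapped the knockdown arrays. It passed without wildtype array C (1.40, adjusted p = 0.0287) and when only sets above the 40th percentile of mean intensity were tested (adjusted p = 0.025). Igfbp2 is the next coding gene to Igfbp5 on chromosome 1 in the RefSeq table, and its own values are given below.

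Igfbp7 encodes a relative of the binding proteins with weak affinity for IGFs, secreted by many cell types. Its brightest set, 1423584_at, read 1913.2, 1872.0 and 1960.6 in overexpressing, 1567.0, 1812.5 and 1973.2 in knockdown, and 973.0, 1189.9 and 1253.2 in wildtype arrays. The wildtype arrays were below all 6 other arrays, and the overexpressing and knockdown arrays overlapped. Overexpressed over wildtype was 0.75 ± 0.11 (adjusted p = 0.0029). Knockdown over wildtype was 0.64 ± 0.11 and did not pass (adjusted p = 0.0952), although it passed without wildtype array C (0.71, adjusted p = 0.0449) and when only probe sets above the 40th percentile were tested (adjusted p = 0.0491). Both comparisons share the same 3 wildtype arrays. Overexpressed over knockdown was 0.11 ± 0.11 (adjusted p = 0.64), with a 95% interval from -0.14 to 0.36. The other Igfbp7 sets were dim, with averages of 46.33 and 27.22 over the 9 arrays, and at -0.07 ± 0.21 and 0.66 ± 0.45 did not pass against wildtype in overexpressing arrays.

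Igfbp6 encodes a binding protein with a preference for IGF2. Its set 1417933_at read 659.7, 718.0 and 681.9 in overexpressing, 994.4, 1010.6 and 1194.3 in knockdown, and 1055.5, 1504.7 and 997.1 in wildtype arrays. The overexpressing arrays were below every other array, and knockdown and wildtype arrays overlapped. Overexpressed over wildtype was -0.75 ± 0.15 (adjusted p = 0.00976). Overexpressed over knockdown was -0.62 ± 0.15 (adjusted p = 0.029), a call that ended when any of the 6 arrays compared was left out (adjusted p = 0.0604 to 0.0998). Knockdown over wildtype was -0.13 ± 0.15 (adjusted p = 0.797), and turned to 0.05 without wildtype array B, the highest of its group.

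**Figure D2:**
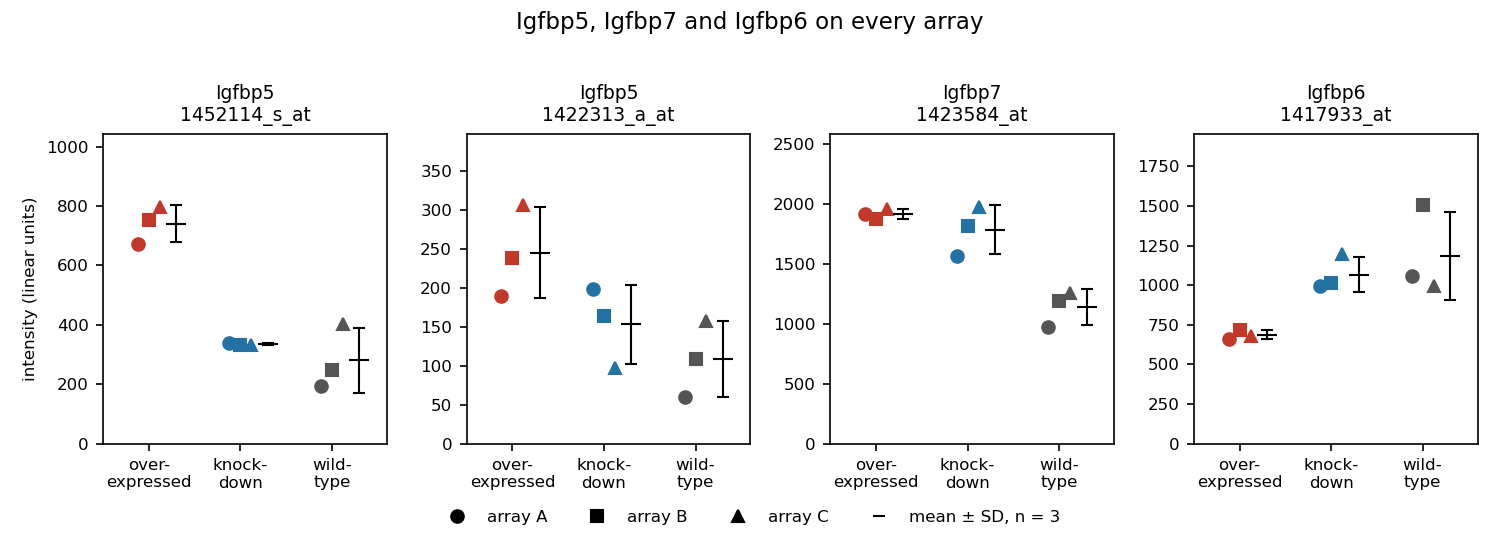
Intensity in linear units (vertical axis, from 0) of both Igfbp5 sets and of the brightest sets of Igfbp7 and Igfbp6 on each array, with mean ± SD of 3 arrays beside the points. The overexpressing arrays stand above all others for the first Igfbp5 set and below all others for Igfbp6, while for Igfbp7 the wildtype arrays, at 973.0 to 1253.2, stand below the other groups.

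Igfbp4, whose product mostly restrains IGF action and is cut by the protease PAPP-A, was read by 6 sets, none of which was called in any of the 3 comparisons. The set 1437405_a_at read 5261.3, 4049.2 and 4591.3 in overexpressing, 5242.0, 4856.6 and 5323.4 in knockdown, and 4783.6, 4896.3 and 5262.3 in wildtype arrays. The groups overlapped, and the log2 fold change was -0.11 ± 0.10 for overexpressed over wildtype (adjusted p = 0.601), with a 95% interval of 0.794 to 1.08 as a ratio. For knockdown over wildtype it was 0.05 ± 0.10 (adjusted p = 0.909), with an interval of 0.885 to 1.20 as a ratio. On 4 of the 6 sets, which all read 1 gene, every overexpressing array was below every knockdown array. Over all probe sets these groups were apart, in either direction, for 28.1%. An unadjusted p under 0.05 was reached by 3 of the 6, all of them among these 4, beside 22.5% of all probe sets. Sets whose groups are apart tend to have a small p, so the counts of sets apart and of small p are not separate results. Of the 4 sets, 1437406_x_at was at -0.26 ± 0.12 (adjusted p = 0.221) and 1423757_x_at at -0.21 ± 0.10 (adjusted p = 0.219). The set 1421992_a_at, the one of the 4 with an unadjusted p above 0.05 (0.138), was at -0.20 ± 0.13 (adjusted p = 0.389). The dimmest set, 1421991_a_at, differed from the others and read 380.3, 269.7 and 588.0 in overexpressing, 670.0, 611.6 and 664.1 in knockdown, and 587.5, 624.6 and 784.4 in wildtype arrays. Its overexpressing arrays A and B were below all knockdown and wildtype arrays and array C touched the wildtype range. It did not pass for overexpressed over wildtype, at -0.73 ± 0.23 (adjusted p = 0.0702), but did without overexpressed array C (-1.01, adjusted p = 0.00991) and when only sets above the 40th percentile were tested (adjusted p = 0.0332). It was the fourth of the sets apart from knockdown, at -0.70 ± 0.23 (adjusted p = 0.0895), and passed under the same changes (adjusted p = 0.0146 and 0.0443). The probe sets of Igfbp4 thus differed in size of change, and the labels do not say which part of the transcript each reads.

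**Figure D3:**
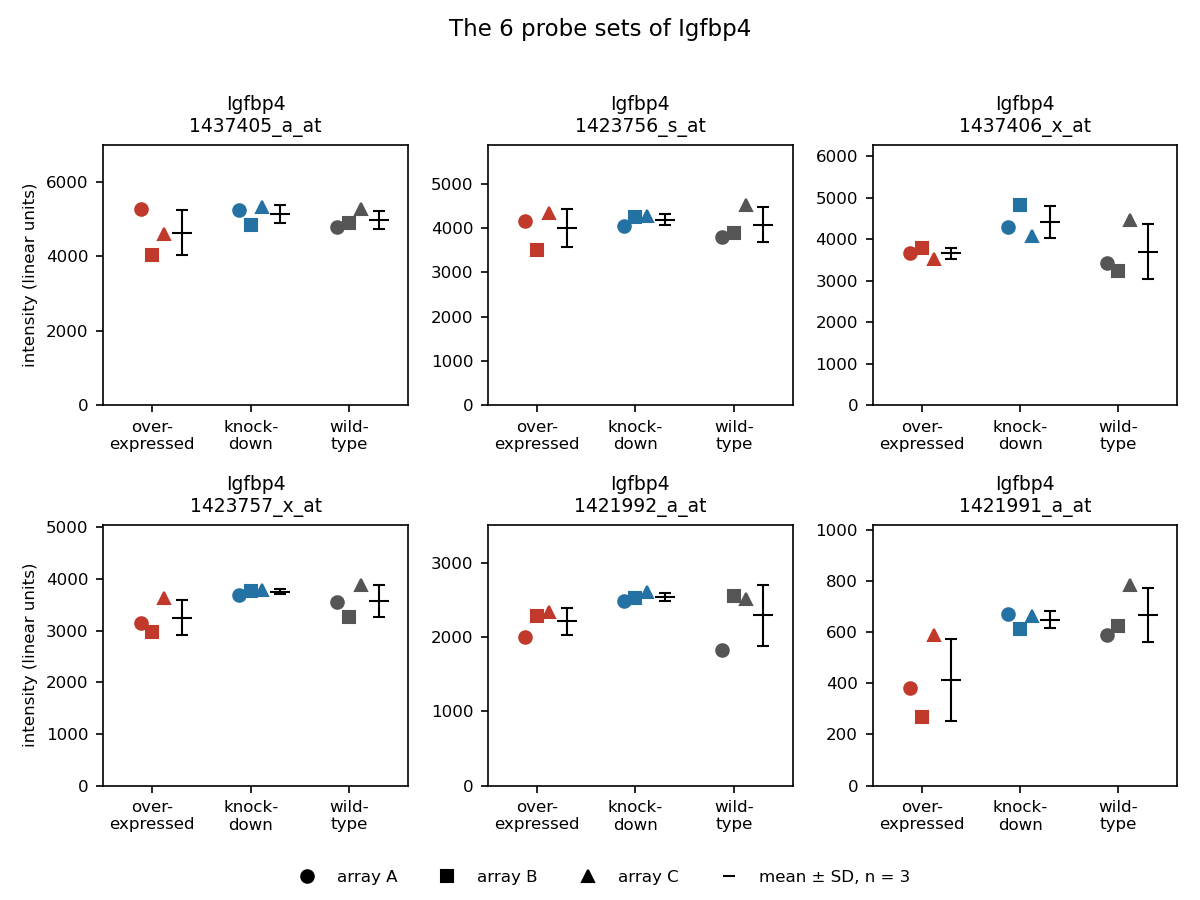
Intensity in linear units (vertical axis, from 0) of the 6 Igfbp4 probe sets on each array, with mean ± SD of 3 arrays. The overexpressing arrays reach into the wildtype range in all 6 panels, in the last, 1421991_a_at, only through array C at 588.0.

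Igfbp2, a binding protein often abundant in developing neural tissue, read 192.1, 120.7 and 178.7 in overexpressing, 244.5, 179.7 and 242.3 in knockdown, and 115.7, 185.2 and 99.7 in wildtype arrays. Knockdown arrays A and C were the highest of the 9. Knockdown over wildtype was 0.70 ± 0.26 and did not pass (adjusted p = 0.361), and overexpressed over wildtype was 0.28 ± 0.26 (adjusted p = 0.603), so that the neighbour of Igfbp5 was not called in these cells. Igfbp3, the main IGF carrier of serum, read 1.6 to 2.8 in overexpressing, 1.6 to 15.5 in knockdown and 2.8 to 3.4 in wildtype arrays. All 9 values were below the 16 units added before the log, so the fitted differences are not read as folds. Igfbp3 lies beside Igfbp1 on chromosome 11, and Igfbp1, at 22.6 on average in overexpressing and 27.47 in wildtype arrays, was dim as well.

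Among the receptors, Igf1r read 379.2, 384.5 and 517.4 in overexpressing, 484.9, 778.0 and 425.9 in knockdown, and 402.4, 440.5 and 478.6 in wildtype arrays on its brighter set. The groups overlapped, and knockdown array B was the highest value. The log2 fold changes were -0.05 ± 0.21 for overexpressed over wildtype (adjusted p = 0.932) and 0.30 ± 0.21 for knockdown over wildtype (adjusted p = 0.638). The first had a 95% interval of 0.70 to 1.32 as a ratio. Igf2r read 124.7, 188.8 and 185.2 in overexpressing, 236.9, 197.2 and 184.6 in knockdown, and 159.6, 232.3 and 157.7 in wildtype arrays on its brighter set, again with overlapping groups. Its second set read lower in every overexpressing array (79.4 to 156.1) than in any wildtype array (161.7 to 177.7), at -0.60 ± 0.31, and did not pass (adjusted p = 0.288). Neither receptor was called in any of the 3 comparisons.

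The ligand transcripts were read only by dim sets. The 3 sets of Igf1 and the 2 of Igf2 averaged 35.46 to 77.84 and 50.12 to 50.69 over all arrays, below the 40th percentile of 108.8. Igf2 on 1415931_at read 36.9, 58.7 and 54.7 in overexpressing, 24.0, 105.4 and 40.3 in knockdown, and 51.1, 56.8 and 28.3 in wildtype arrays, with no order among the groups (adjusted p = 0.914 and 0.945 against wildtype). Igf1 on its brightest set read 66.6, 60.9 and 113.3 in overexpressing, 63.8, 11.1 and 80.4 in knockdown, and 55.1, 123.2 and 126.2 in wildtype arrays, and no difference passed. The set 1452014_a_at of Igf1 read 16.8 to 24.0 in overexpressing and 43.1 to 88.5 in knockdown arrays, without overlap, at -1.09 ± 0.32 for overexpressed over knockdown (adjusted p = 0.0684). It passed without wildtype array A (adjusted p = 0.0323). The file holds no detection calls, so whether the ligands were expressed cannot be told from these sets.

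**Figure D4:**
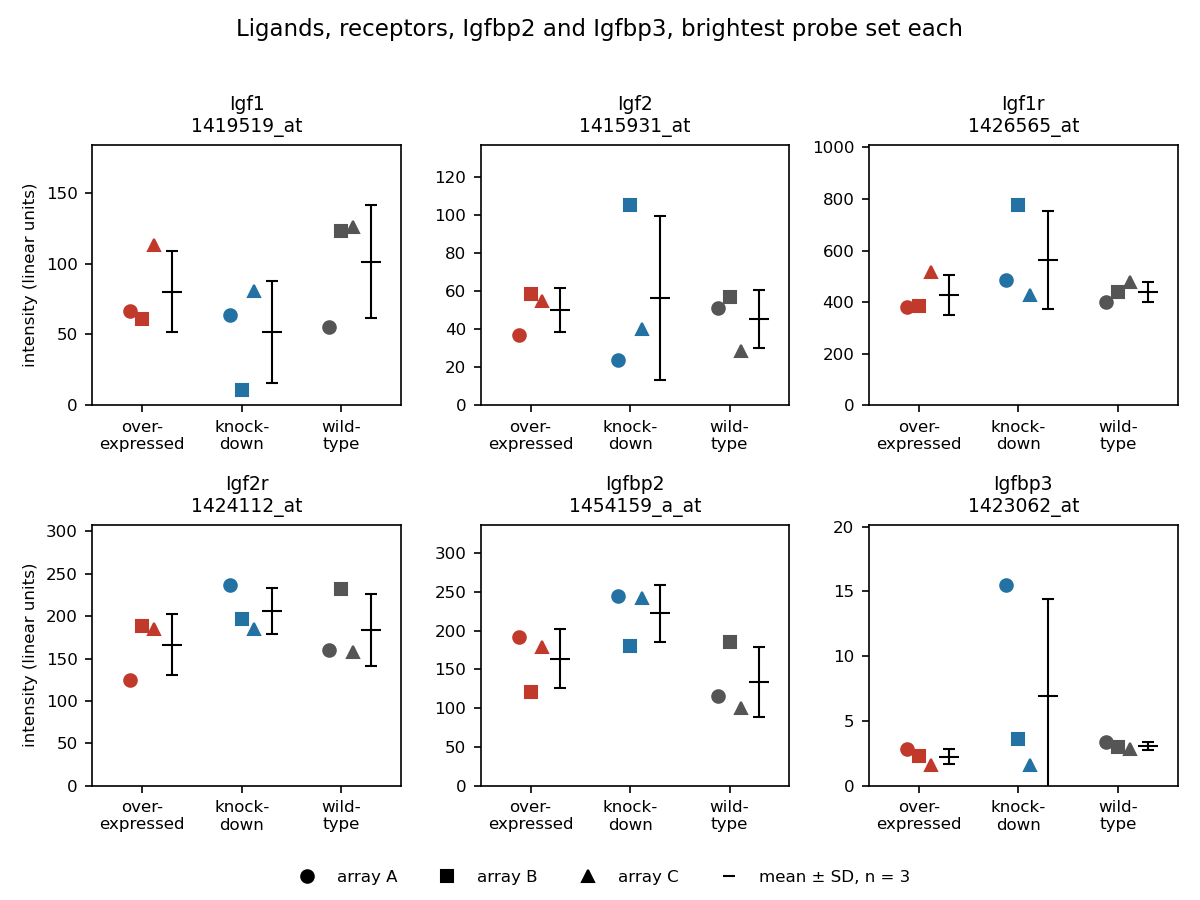
Intensity in linear units (vertical axis, from 0) of the brightest set of Igf1, Igf2, Igf1r, Igf2r, Igfbp2 and Igfbp3 on each array, with mean ± SD of 3 arrays. The groups overlap or touch in every panel, and the Igfbp3 values stay at or below 15.5.

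In the knockdown cells 0 of the 23 sets were called against wildtype, beside 0.0133% of all probe sets, and 3 had an unadjusted p under 0.05, those of Igfbp7 (1423584_at), Igfbp2 and Igf1 (1452014_a_at). That is 13.0% of the family's sets, beside 10.9% of all sets at such a p. The groups were apart for 1 of the 23 sets, the Igfbp7 set, beside 15.6% of all sets. Between overexpressing and knockdown cells 2 sets were called, those of Igfbp5 and Igfbp6, or 8.70%, beside 7.57% of all sets, and the groups were apart for 7 of 23, or 30.4%, beside 28.1%. In 4 of these 7 the set was one of Igfbp4, each lower in overexpressing arrays, and none of those 4 was called. The median over the brightest sets was 0.20 for knockdown over wildtype and -0.22 for overexpressed over knockdown, beside 0.03 and -0.048 over all probe sets.

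Around the family, 63 other genes of IGF signalling were measured in 4 lists, each read by its brightest set. The most changed was Socs2, a feedback inhibitor of cytokine and growth hormone signalling, with 3092 ± 116 in overexpressing, 1471 ± 69.5 in knockdown and 1345 ± 315 in wildtype arrays (SD, n = 3 each). It was 1.22 ± 0.14 higher in overexpressing than in wildtype cells (adjusted p = 0.000824) and 1.06 ± 0.14 higher than in knockdown cells (adjusted p = 0.00232), and its second set was called in both comparisons as well. In overexpressed over wildtype, 4.52% of all sets were called higher and 5.07% lower. Among insulin receptor relatives and adaptors 1 of 20 was called, Socs2, with a list median of -0.01. The receptor gene Insr and the adaptor genes Irs1 and Irs2 did not pass, at -0.31 ± 0.17, -0.02 ± 0.18 and 0.17 ± 0.22.

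Of 16 partners and proteases of the binding proteins, 1 rose and 2 fell in overexpressing cells, with a median of -0.11. Adam12, a protease whose human form can cut IGFBP5, was at 0.62 ± 0.16 (adjusted p = 0.0361), with its second set at 0.43 ± 0.22 and not called. Ctsd, the lysosomal protease cathepsin D, was at -0.82 ± 0.18 (adjusted p = 0.0173), and Plat, the tissue plasminogen activator, at -0.78 ± 0.21 (adjusted p = 0.0412). Pappa, the protease of Igfbp4, was dim, with 14.43 in overexpressing and 25.47 in wildtype arrays, and did not pass. Of 25 genes of the PI3K, AKT, FOXO and mTOR branch 1 rose and 2 fell, with a median of -0.09. Foxo3, a transcription factor held back by AKT, was at -1.08 ± 0.30 (adjusted p = 0.0455), the PI3K subunit gene Pik3r2 at -0.48 ± 0.12 (adjusted p = 0.0343), and Eif4ebp2, a brake on translation that mTOR inactivates, at 0.58 ± 0.12 (adjusted p = 0.0135) on 1 of its 5 sets. Of 2 measured IGF2 mRNA-binding proteins Igf2bp3 rose, by 0.71 ± 0.16 (adjusted p = 0.0212), on 1 of its 4 sets. On the brightest sets, leaving out 1 array ended the call of 7 of these 8 genes, Socs2 being the exception. For Adam12 and Pik3r2 this was any of the 6 arrays compared (adjusted p = 0.0675 to 0.112 and 0.0552 to 0.115), for Foxo3 these or knockdown array C (0.0565 to 0.169), and for Plat any array but wildtype C (0.0538 to 0.127). For Ctsd it was overexpressed B, overexpressed C or wildtype B (0.0539 to 0.0674), for Igf2bp3 array A or C of the overexpressed or A or B of the wildtype group (0.0624 to 0.078), and for Eif4ebp2 wildtype B (0.0635). With the letter as a replicate block the calls of Adam12 (adjusted p = 0.0574) and Foxo3 (adjusted p = 0.0641) ended too.

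In overexpressed over knockdown, where 3.43% of all sets were called higher and 4.14% lower, Ptpn11, a phosphatase that carries receptor signals, was at 0.58 ± 0.10 (adjusted p = 0.00747) on 1 of its 3 sets, the others being at -0.02 and 0.62 and not called. Shc1, an adaptor of IGF1R, was at -0.58 ± 0.12 (adjusted p = 0.0139), with its second set at -0.42 ± 0.14 and not called. With Socs2 these were 3 of the 20 insulin receptor relatives and adaptors. Ddit4, an mTOR inhibitor induced by stress and low oxygen, was at -0.76 ± 0.11 (adjusted p = 0.00423) and Eif4ebp2 at 0.50 ± 0.12 (adjusted p = 0.0315), 2 of 25 in their list. The other 4 sets of Eif4ebp2 lay between -0.36 and 0.45 and were not called. The call of Shc1 ended without knockdown array B (adjusted p = 0.0514) and that of Eif4ebp2 without any of the 6 arrays compared but knockdown B (0.07 to 0.108). The binding protein partners had 0 of 16 and the mRNA-binding proteins 0 of 2, and knockdown over wildtype had 0 in all 4 lists, with 2 of 16, 2 of 20, 5 of 25 and 0 of 2 members at an unadjusted p under 0.05, beside the 10.9% of all sets.

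**Figure D5:**
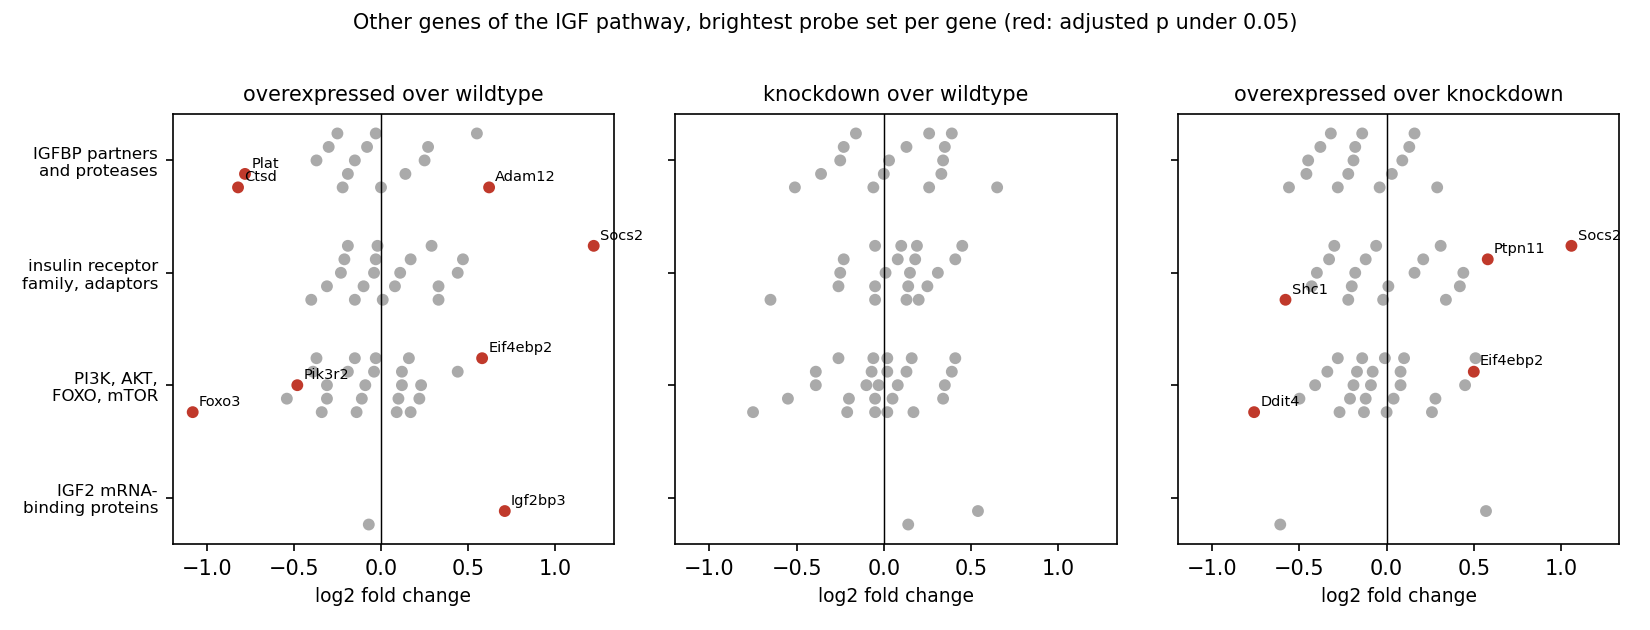
Log2 fold changes (horizontal axis) of the other IGF pathway genes, 1 point per gene on its brightest set, in 4 lists (rows) and 3 comparisons (panels), with called genes in red and named. Socs2, at 1.22 and 1.06, stands furthest right in the left and right panels, and no point is red in the middle panel.

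Over the 9 arrays, the profile of Igfbp5 on 1452114_s_at was most like those of Dna2, a replication nuclease, Pabpn1, a poly(A)-binding protein, and Nudt3, a phosphohydrolase, with Pearson r of 0.994, 0.991 and 0.987. Dna2 averaged 967.4 in overexpressing, 442.6 in knockdown and 363.4 in wildtype arrays. The Igfbp7 profile was nearest to those of the cardiac factor gene Nkx2-5, the endosomal sorting gene Snf8 and the monoacylglycerol lipase gene Mgll (0.98, 0.972 and 0.971). Nkx2-5 averaged 794.3, 781.5 and 690.9 in overexpressing, knockdown and wildtype arrays, a small difference, and Mgll 415.1, 366.8 and 208.5. For Igfbp6 the nearest were Aamp, Ergic3 and Capzb (0.977, 0.96 and 0.957), with 2652, 3440 and 3670 for Aamp in the same groups. These are the highest values among all sets brighter than the median, over arrays that share their groups, and are given as a description.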

How the data were processed

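Per the values of the file, the authors deposited linear 1-colour intensity values, 1 per probe set and array, scaled so that the mean without the lowest and highest 2% was 500.2 on each of the 9 arrays. The software, background correction and build are not named in the sources used here. Precision is bounded by having 3 arrays a group. From 22690 probe sets, 64 controls were left out. Among the other 22626, 20380 had exactly 1 symbol, 691 several and 1555 none. All 10 member genes matched RefSeq GRCm38.p6 by gene identifier, which served for names and gene order.

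Values were taken as log2(intensity + 16). limma 3.58.1 in R 4.3.3 (lmFit, eBayes with trend) was fitted to all 9 arrays with 1 mean per group, and Benjamini-Hochberg adjustment ran over 22626 probe sets per comparison. The fit was tested on simulated data. The members, lists and tests were chosen with earlier results of these data known. Named were all members, Tcof1, called list genes (up to 4 per list and comparison) and the 3 nearest profiles of each member called against wildtype. Igfbp1, Insr, Irs1, Irs2, Pappa, the called markers and other sets of called genes were added after their values were seen. The alternatives were other pseudocounts, a filter, quantile or median scaling, no trend, fewer arrays, the letter as a block and the mean of a gene's probe sets.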

Additional observations from a re-analysis of the deposited data

How the results depend on the processing

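Igfbp5, Igfbp6 and Igfbp7 kept their direction and their call for overexpressed over wildtype in all 17 alternative fits, from 1.19 to 1.69, -0.86 to -0.57 and 0.64 to 0.82, with adjusted p at most 0.0171, 0.0409 and 0.021. The mean over all sets was 0.45 for Igfbp7. The Igfbp5 call over knockdown also held in all 17 (adjusted p at most 0.0441). The Igfbp6 call over knockdown ended with a common array median (-0.56, adjusted p = 0.0634) and without the mean-variance trend (-0.62, adjusted p = 0.0838), and in the 6 fits that left out an array of these groups.

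With only sets above the 40th percentile fewer were tested. Family sets called rose from 3 to 5, of 4 genes, for overexpressed over wildtype, and all sets from 2169 to 2704. For knockdown over wildtype they rose from 0 to 1 and from 3 to 46. A common array median and no trend each left 1 family call in place of 2 for overexpressed over knockdown. With no trend 1339, 1 and 834 of all sets were called, for overexpressed and then knockdown over wildtype and last for overexpressed over knockdown, in place of 2169, 3 and 1713. For knockdown over wildtype quantile normalization and the fit on 6 arrays each gave 1 call over all sets. When arrays were left out in turn, family sets called ran from 3 to 4, 0 to 1 and 1 to 3 in the same order of comparisons, and all sets from 1090 to 2404, 0 to 103 and 704 to 2048, with 103 reached without wildtype array C and 1090 without wildtype array B. Pathway counts moved for the adaptors against wildtype in overexpressing cells (3 with the filter and 2 with quantile normalization, in place of 1), the PI3K branch (1 with a common median, in place of 3) and the mRNA-binding proteins over knockdown (1 with the filter, in place of 0). With no trend the calls of Plat, Ctsd, Pik3r2 and Foxo3 against wildtype (adjusted p = 0.0591 to 0.1) and of Shc1 and Eif4ebp2 over knockdown (0.0605 and 0.0825) ended, and Foxo3 also lost its call with a pseudocount of 64 and with either scaling (0.0515 to 0.0589). The causes of these changes were not tested.

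With the letter as a replicate block 4, 0 and 2 family sets were called and 2128, 0 and 1600 of all sets, and the added call was Igfbp4 (1421991_a_at, adjusted p = 0.0387). Deviations from the group means correlated by -0.012 to 0.102 between same-letter arrays and -0.12 to 0.099 between others, and not every array correlated best with its own letter. These ranges overlap and do not settle whether the letters pair the arrays. The letters were not taken as pairs in the main fit because no label says what they stand for.

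Sign changes were seen only in differences that were not called. When arrays were left out, overexpressed over wildtype ran from -0.10 to 0.28 for Igf2, -0.20 to 0.02 for Igf1r and -0.22 to 0.05 for Igf2r. Knockdown over wildtype ran from -0.34 to 0.46 for Igf2 and -0.24 to 0.05 for Igfbp6, and the difference for Igfbp3, not read as a fold since all its values lie under the pseudocount, from -0.04 to 0.38. Overexpressed over knockdown ran from -0.34 to 0.46 for Igf2. The mean of all sets gave 0.19 for Igf1r over wildtype in overexpressing cells, and -0.12 for Igf1 and -0.03 for Igf2 in overexpressed over knockdown, where a pseudocount of 64 gave -0.03 for Igf2.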
